A study of Mus musculus with 18 samples.

Results

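The miRNAs described here are those of the mir-142, mir-223, mir-144, mir-451a, mir-451b and mir-150 hairpins, a set best known from blood cells. They were taken by name, as every hairpin (written mir, such as mmu-mir-223, mmu-mir-144 and mmu-mir-150) and every mature arm (written miR, such as mmu-miR-451b) of these names. This gave 16 of the 2134 listed features, 6 hairpins and 10 mature miRNAs. The names miR-142a and miR-142b matched nothing, because the files write miR-142 alone, and the prefix mmu is left out below. They were measured by small RNA sequencing in BV-2 cells, an immortalized mouse microglial cell line, in 18 samples of 6 groups with 3 samples each. The groups were untreated control cells, LPS (lipopolysaccharide of a bacterial cell wall, 100 ng/ml for 4 h), CBD (cannabidiol, 10 μM for 6 h in all), THC (tetrahydrocannabinol, 10 μM for 6 h), and CBD+LPS and THC+LPS, in which the cannabinoid was given 2 h before LPS. All groups share the same line, which is a cell culture model and not primary microglia. The cannabinoids were dissolved in ethanol, and whether the control cells received the solvent is not given in the sources used here.

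A miRNA is cut from a hairpin transcript into 2 arms of roughly equal length, 5p and 3p, and the arm kept by an Argonaute protein represses messenger RNAs that pair with its seed, bases 2 to 8. miR-142 is made in nearly all blood cells and is widely used to mark them. miR-223 is the typical miRNA of granulocytes and their precursors, and it is made in monocytes and macrophages too. miR-144 and miR-451a are made together from a common transcript in red cell precursors, and miR-451a is unusual in being cut by Argonaute 2 in place of Dicer. miR-150 is abundant in mature B and T lymphocytes. Microglia are macrophages of the brain that descend from blood-forming cells of the yolk sac.

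Sequences of 9 of the 10 mature members were read from the RefSeq table used here (GRCm38.p6), which has no entry for miR-150-5p. They are shown because the arms differ in abundance below and because the positions of miR-451a and miR-451b bear on how reads are assigned. The capitals mark the seed.
miR-142-5p: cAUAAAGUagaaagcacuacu
miR-142-3p: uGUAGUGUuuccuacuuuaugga
miR-223-3p: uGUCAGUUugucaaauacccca
miR-223-5p: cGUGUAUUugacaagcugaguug
miR-150-3p: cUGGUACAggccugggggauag
miR-451a: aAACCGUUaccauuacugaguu
miR-451b: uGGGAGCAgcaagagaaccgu
miR-144-3p: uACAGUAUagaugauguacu
miR-144-5p: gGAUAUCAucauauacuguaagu
No seed was shared between these 9 miRNAs or with any other of the 1738 mature miRNAs in the RefSeq table.

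On GRCm38, Mir142 lies at chr11:87756864-87756927 on the plus strand, in an intron of the long non-coding gene Mir142hg, with Mir142b annotated on the opposite strand of the same place. Mir144 lies at chr11:78073005-78073070 on the plus strand. Mir451a follows 99 bases further at chr11:78073170-78073241, also on the plus strand. Mir451b has the same coordinates on the minus strand, so that its 72-base hairpin is the exact reverse complement of the Mir451a hairpin. The mature miR-451a and miR-451b are 11 bases apart within it, and the longest run that they share on the same strand is 6 bases. Mir223 lies at chrX:96242817-96242926 on the plus strand, inside an exon of F630028O10Rik. Mir150 lies at chr7:45121757-45121821 on the plus strand and overlaps no other annotated gene. Whether the counting used strand is not given in the sources used here, and without strand, reads from a hairpin and its antisense partner cannot be told apart.

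The values are CPM, that is, reads relative to the size of the library, scaled by edgeR's TMM factors, from which whole reads were recovered, 442718 to 1057147 per sample. A level of 3 reads, taken as the floor for counting error alone, was 2.98 to 6.38 CPM. The labels number the samples 22 to 39 and name no batch. Samples 22 to 27, which hold 1 sample of each group, lay wholly apart from the others for miR-142-3p and miR-223-3p. Values are therefore given with the sample number where this matters. The abundant hairpins mir-6243, mir-6240 and mir-6236 together held 0.151% to 4.55% of the reads. Of the markers of the labelled cell type, mir-142, mir-21a, mir-146a and mir-155 were present in every sample, with a sum over the whole list of 35271 to 80313 CPM, and mir-223 was low at 69.9 to 249 CPM. Among marker lists of other cells, that of liver (miR-122) held 0 to 2 reads per sample and that of muscle summed to 6.38 to 42.8 CPM. That of megakaryocytes and endothelium (mir-126) held 377 to 909 CPM, above mir-223. The neuron list summed to 1103 to 1791 CPM, most of it miR-128 (492 to 783 CPM) and miR-132 (460 to 929 CPM). Among its other markers, miR-129 held 19 to 115 reads and miR-124 held 0 to 8. The epithelium list summed to 5736 to 9417 CPM, most of it mir-141 (5527 to 8984 CPM). Among its other markers, mir-200b held 75 to 176 reads, mir-429 37 to 108 and mir-200c 4 to 17.

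In control cells the members ranged from miR-142-5p, among the most abundant miRNAs of the cells, to miRNAs with no read in most samples. The 9 mature members with a sequence are 20 to 23 bases long, so their CPM were set side by side without division by length. miR-142-5p ranked 20 of the 1279 mature miRNAs by mean control CPM, miR-142-3p ranked 57, miR-223-3p ranked 183 and miR-150-3p ranked 265. miR-150-5p and miR-223-5p ranked 419 and 420, at 7.61 ± 5.11 and 7.60 ± 5.80 CPM (SD, n = 3), and did not differ beyond their spread. Each other step down to these 2 exceeded the spread, in that the 3 control samples of the higher miRNA all lay above those of the lower. miR-451a, miR-144-5p, miR-451b and miR-144-3p ranked 656, 701, 729 and 803, with 0 or 1 read in every control sample, and their order cannot be told at this depth.

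**Figure D1:**
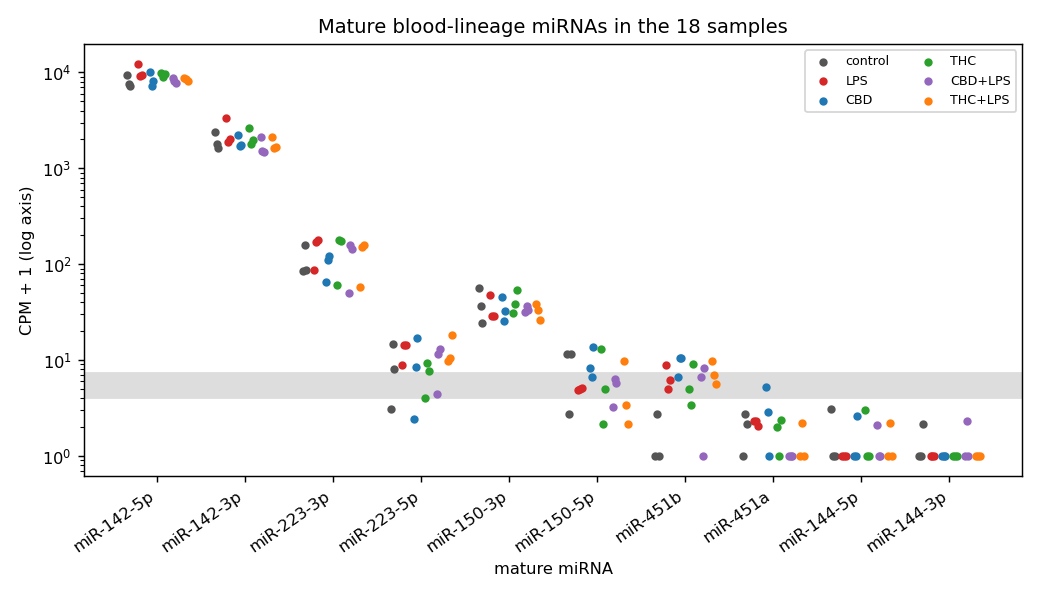
CPM + 1 (log axis) of the 10 mature members in each of the 18 samples, points coloured by group, with the grey band at the floor of 3 reads (2.98 to 6.38 CPM). miR-142-5p lies between 7254 and 12346 CPM, while miR-451a and miR-144 lie at or below the floor in all groups and miR-451b lies at its edge.

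The mir-142 hairpin with its arms took 98.2% of all reads on the members and 0.886% to 1.76% of all reads in a sample. The mir-223 features took 1.45% of the reads on the members, those of mir-150 0.334%, mir-451b 0.0440%, mir-451a 0.0104% and mir-144 0.00795%. The erythroid and lymphocyte members were thus present as a small number of reads in libraries with 3873 to 9882 reads on miR-142-5p. In bulk RNA, fewer cells making a miRNA and less of it per cell cannot be told apart.

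miR-142-5p had its highest mean in LPS-treated cells, without passing the criterion used. It held 9472, 7520.3 and 7254 CPM in control samples 22, 28 and 34, and 12346, 9224 and 9386 CPM in LPS samples 23, 29 and 35. The groups overlapped only through control sample 22, which lay above LPS samples 29 and 35. Within each run of 6 sample numbers that holds 1 sample per group (22 to 27, 28 to 33 and 34 to 39), the LPS sample lay above the control sample. How many of all features kept such an order in every run was not counted. The group means were 8082 ± 1211 and 10319 ± 1757 CPM (SD, n = 3). A change was called where it reached 1.5-fold and an unadjusted p of 0.005 or less, after the study's criterion. By limma with Benjamini-Hochberg adjustment over the 1363 features tested, the log2 fold change was 0.35 (SE 0.16, adjusted p = 0.821). With the 3 runs as a block it was 0.35 (SE 0.11, limma adjusted p = 0.297), again short of the criterion.

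With CBD, miR-142-5p stood at 10063, 7273 and 8096 CPM, and with THC at 9826, 9037 and 9508 CPM. The CBD samples overlapped the control samples, and the THC samples all lay above 2 of the 3 control samples. In CBD+LPS it held 8757, 8175 and 7806 CPM, and in THC+LPS 8650 (sample 27), 8444 and 8217 CPM. Every sample of both combined treatments lay below every LPS sample. Of all features tested, 5.87% lay entirely below LPS in CBD+LPS and 4.62% in THC+LPS. The log2 fold changes against LPS were -0.31 (95% interval -0.65 to 0.03, limma adjusted p = 1.0) and -0.28 (-0.62 to 0.06, limma adjusted p = 1.0), and neither passed. The interaction of THC and LPS on miR-142-5p was -0.51 on the log2 scale (95% interval -0.99 to -0.03, limma adjusted p = 0.934).

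The changes of miR-142-5p against LPS stayed between -0.34 and -0.23 under 3 other scalings, while several against control depended on the scaling. With library size alone, DESeq2's size factors or the study's reference miRNAs, the LPS change of miR-142-5p was 0.19, 0.25 and 0.11 in place of 0.35. With the same scalings its change with THC+LPS was -0.08, -0.01 and -0.23 in place of 0.07, so that its direction there depends on the scaling. The changes against control with CBD and CBD+LPS changed sign likewise under at least 1 of these scalings.

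miR-142-3p followed the sample number more than the treatment. It held 2365, 3318, 2208, 2623, 2095 and 2100.2 CPM in samples 22 to 27 (control, LPS, CBD, THC, CBD+LPS, THC+LPS in this order) and 1486 to 2015 CPM in samples 28 to 39. The 6 samples of the first set all lay above the 12 others. How many of all features were split in this way was not counted, so the split is not read as particular to miR-142-3p. LPS sample 23 was the highest sample for both arms and for the hairpin. No comparison of miR-142-3p passed. Its log2 fold changes ran from -0.18 (CBD+LPS) to 0.29 (LPS) against control, and from LPS to CBD+LPS it was -0.47 (SE 0.23, limma adjusted p = 1.0). With the runs of 6 sample numbers as a block, this change had an SE of 0.11 (limma unadjusted p = 0.00087, adjusted p = 0.414). From LPS to THC+LPS the change in that fit was -0.38 (SE 0.11, limma unadjusted p = 0.0043, adjusted p = 0.995). Both fell short of 1.5-fold.

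**Figure D2:**
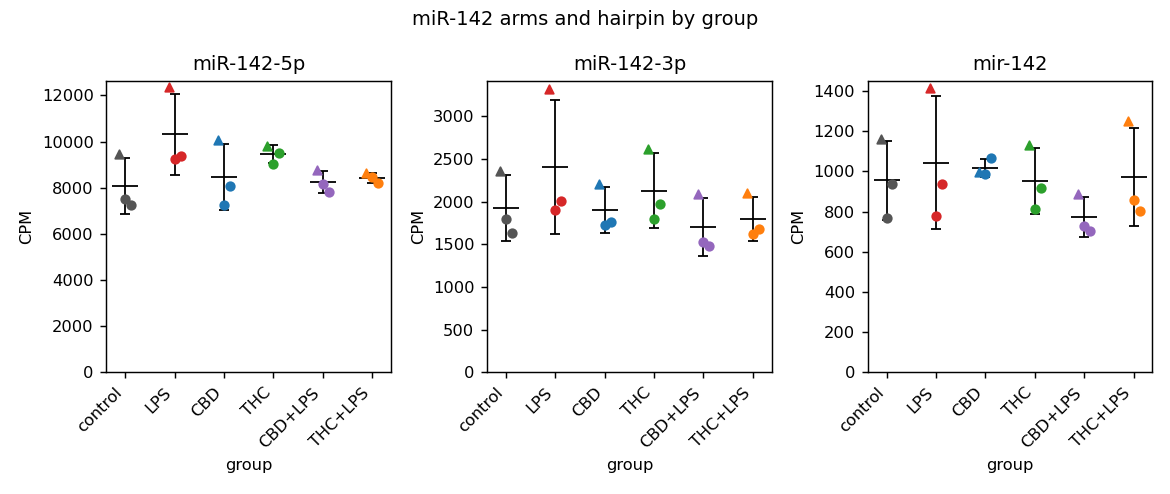
CPM of miR-142-5p, miR-142-3p and the mir-142 hairpin in each sample by group, triangles for samples 22 to 27 and circles for samples 28 to 39, with the group mean and SD (n = 3). For miR-142-3p the triangle is the highest point in each of the 6 groups, and for miR-142-5p all CBD+LPS and THC+LPS points lie below the LPS points.

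The 5p arm was the more abundant arm of miR-142 in all 18 samples, at 78.8% of both arms' reads in LPS sample 23 (Wilson 95% interval 78.1 to 79.5, 11978 reads) to 84.3% in CBD+LPS sample 32 (83.4 to 85.1, 7303 reads). The mean share was 80.8% ± 0.812 for control, 81.4% ± 2.21 for LPS, 81.6% ± 0.702 for CBD, 81.7% ± 2.43 for THC, 83.0% ± 1.997 for CBD+LPS and 82.5% ± 1.79 for THC+LPS (SD, n = 3). These groups overlapped, and the share was 80.2% ± 1.19 over samples 22 to 27 and 82.7% ± 1.18 over samples 28 to 39. The intervals and floors given here cover counting error only, since PCR reads are not independent molecules.

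The mir-142 hairpin held 705 to 1412 CPM, and its reads were 6.55% to 10.4% of all reads on mir-142. It stood at 955 ± 196 CPM for control, 1043 ± 329 for LPS, 1017 ± 45.2 for CBD, 952 ± 162 for THC, 774 ± 101 for CBD+LPS and 970.2 ± 243 for THC+LPS (SD, n = 3). CBD+LPS had the lowest mean, with 890 (sample 26), 727 and 705 CPM against 1159, 768 and 939 in control. The log2 fold change from control was -0.29 (SE 0.24, limma adjusted p = 0.971), within the spread between replicates.

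miR-223-3p was the most abundant arm outside miR-142 and varied 3.68-fold between the lowest and the highest sample. In samples 22 to 27 it held 82.9 (control), 85.0 (LPS), 64.5 (CBD), 59.7 (THC), 48.5 (CBD+LPS) and 56.9 CPM (THC+LPS). In samples 28 to 39 the lowest value was 85.1 CPM, in control sample 34, and the highest 178 CPM, in THC sample 31. The first set thus lay below the other samples, by a margin of under 1 read at its edge, and in the opposite direction to miR-142-3p. The share of all features split in this way was not counted here either. Within samples 28 to 39, control had 159 and 85.1 CPM, LPS 169 and 178, CBD 111 and 121.7, THC 178 and 172, CBD+LPS 159 and 143, and THC+LPS 149 and 158.

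The group means of miR-223-3p were 109 ± 43.3 CPM for control, 144.2 ± 51.5 for LPS, 99.0 ± 30.4 for CBD, 136 ± 66.6 for THC, 117 ± 59.8 for CBD+LPS and 121 ± 56.0 for THC+LPS (SD, n = 3). No comparison passed. The LPS log2 fold change was 0.39 (SE 0.53, limma adjusted p = 0.966). Within samples 28 to 39 it was 0.57 (SE 0.23, limma adjusted p = 0.237), with THC at 0.58 (SE 0.23, adjusted p = 0.441) and CBD at -0.00 (adjusted p = 1.0).

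**Figure D3:**
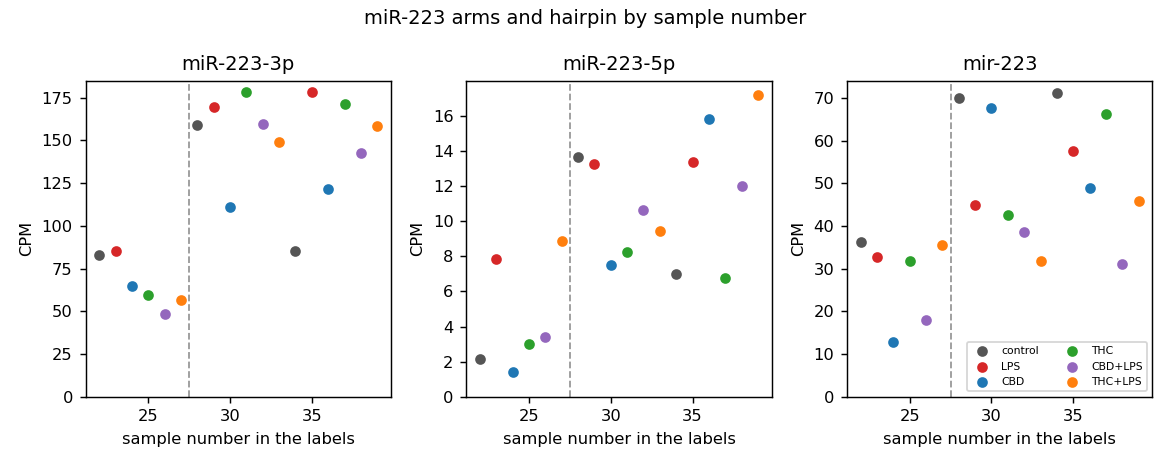
CPM of miR-223-3p, miR-223-5p and the mir-223 hairpin against the sample number in the labels, coloured by group, with a dashed line between samples 27 and 28. miR-223-3p is 48.5 to 85.0 CPM left of the line and 85.1 to 178 CPM right of it, whereas the treatments are mixed on either side.

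The 3p arm made up 86.5% of both arms' reads in THC+LPS sample 27 (Wilson 95% interval 72.0 to 94.1, 37 reads) to 97.8% in CBD sample 24 (88.7 to 99.6, 46 reads), and these intervals overlap. miR-223-5p had 123 reads over all samples and 1.43 to 17.2 CPM. Its log2 fold changes from control were 0.77 with LPS (SE 0.69) and 0.79 with THC+LPS (SE 0.69) (limma adjusted p = 0.966 and 1.0).

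The mir-223 hairpin had its lowest mean in CBD+LPS. It held 36.2, 70.1 and 71.1 CPM in the control samples and 18.04, 38.5 and 31.2 CPM in the CBD+LPS samples, on 16 to 61 reads. The groups overlapped, since control sample 22 lay below CBD+LPS sample 32. In each of the 3 runs of sample numbers the CBD+LPS sample lay below the control sample, an order whose share over all features was not counted. The log2 fold change was -0.99 (95% interval -2.04 to 0.06, limma adjusted p = 0.878). With the runs as a block it had an SE of 0.35 (limma adjusted p = 0.363) and did not pass. In samples 28 to 39 alone the change was -1.01 (SE 0.29, limma adjusted p = 0.0903), which passed. The share of all features that passed in this smaller set was not counted, so this pass has no background beside it. Over the 4 other treatments the hairpin's log2 fold change from control was -0.36 (LPS), -0.67 (CBD), -0.33 (THC) and -0.59 (THC+LPS), none of which passed. Its arms did not share this direction, with miR-223-3p at -0.01 and miR-223-5p at 0.28 in CBD+LPS.

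miR-150 was low in all groups, and no comparison of either arm passed. miR-150-3p held 23.3 to 55.3 CPM on 13 to 39 reads per sample. Its means were 38.2 ± 16.1 CPM for control, 34.2 ± 11.1 for LPS, 33.5 ± 10.2 for CBD, 40.1 ± 11.6 for THC, 32.9 ± 2.74 for CBD+LPS and 31.5 ± 6.06 for THC+LPS (SD, n = 3). The control samples alone spanned the whole range, and the log2 fold changes from control lay between -0.20 and 0.12. miR-150-5p held 1 to 12 reads per sample, at 1.15 to 12.6 CPM. Together the arms had 542 reads, of which 467 were from the 3p arm, and its share ran from 69.0% in control sample 34 (Wilson 95% interval 50.8 to 82.7, 29 reads) to 97.0% in THC sample 31 (84.7 to 99.5, 33 reads). The mir-150 hairpin had 4 reads in all.

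The red cell miRNAs were at the edge of detection. miR-144-3p had 2 reads, miR-144-5p 6 and the mir-144 hairpin 5 over the 18 samples, with at most 2 in any sample. miR-451a had 12 reads in 10 of the samples, with the highest, 3 reads, in CBD sample 24. Its hairpin mir-451a had 5 reads and mir-451b 5 reads. No read of miR-451a was seen in any CBD+LPS sample, and all 3 LPS samples had 1 read. miR-451a was thus among the features that lay entirely below LPS in CBD+LPS, at a log2 fold change of -1.15 (SE 0.59, limma adjusted p = 1.0), where both groups are below the floor. The features mir-144, miR-144-3p, miR-144-5p, mir-150, mir-451a and mir-451b had under 10 reads over the 18 samples and were not tested.

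miR-451b was the member with calls, and it is also the member that the study listed from these same samples, so these calls are not independent evidence for it. Its control samples held 0, 1 and 0 reads, and its CBD+LPS and THC+LPS samples, given the cannabinoid and LPS, held 5, 0 and 6 reads (samples 26, 32 and 38) and 5, 5 and 4 reads (samples 27, 33 and 39). In CPM this was 0, 1.71 and 0 in control, 5.64, 0 and 7.20 in CBD+LPS, and 8.88, 5.91 and 4.58 in THC+LPS. The THC+LPS samples all lay above the control samples, and in CBD+LPS sample 32 held no read among 838172, which allows a level of up to 3.98 CPM. By the same rule control sample 22, with no read among 442718, allows up to 6.38 CPM, and control sample 34 up to 3.50 CPM. The limit of control sample 22 lies above THC+LPS samples 33 and 39. The CBD samples 24, 30 and 36 held 4, 5 and 6 reads, at 5.74, 9.39 and 9.48 CPM. That limit lies above CBD sample 24 as well. Other than CBD+LPS sample 32, each of the 14 samples with LPS, CBD or THC held at least 2 reads.

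Against control, miR-451b differed at a log2 fold change of 2.69 with CBD (SE 0.69, limma adjusted p = 0.155) and 2.38 with THC+LPS (SE 0.69, limma adjusted p = 0.204), both of which met the criterion. On the recovered reads, edgeR's quasi-likelihood test made the call with CBD and not that with THC+LPS, and DESeq2 made neither. With LPS it was 2.21 (limma adjusted p = 0.319), with THC 1.94 (limma adjusted p = 0.977) and with CBD+LPS 1.44 (limma adjusted p = 0.803), and these did not. The F test of the 5 treatments did not pass for it (limma adjusted p = 0.373). These changes are on the log2(CPM + 1) scale, which depends on the added 1 for so few reads. Ratios to the 1 control read were also taken, as reads relative to the TMM-scaled library size. The ratio was 15.4 with CBD (95% counting interval 2.37 to 649), 11.7 with THC+LPS (1.79 to 496) and 10.8 with LPS (1.64 to 455). It was 8.85 with THC (1.31 to 378) and 8.51 with CBD+LPS (1.24 to 366).

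The interaction of CBD and LPS on miR-451b was -3.46 (SE 0.98, limma adjusted p = 0.524), which did not pass. Without CBD+LPS sample 32 it was -2.50 (adjusted p = 0.990), and the changes from control with LPS, THC and CBD+LPS then met the criterion as well. The CBD+LPS change was 2.40 without that sample (limma adjusted p = 0.153). Within samples 28 to 39 the CBD change was 2.66 (limma unadjusted p = 0.0085, adjusted p = 0.0579). The THC+LPS change there was 1.92 (limma adjusted p = 0.474), and neither passed the criterion. Over all samples the unadjusted p of the CBD change was lower (limma, 0.0012). The share of all features at such an adjusted p in samples 28 to 39 was not counted. The control libraries held 442718, 595482 and 760136 reads and the CBD libraries 618383, 541844 and 660003, so that read totals overlapped between these groups. The THC+LPS libraries held 539785, 924815 and 978251 reads, and samples 33 and 39 lay above every control library. The summed erythroid markers mir-451a, mir-144 and mir-486, nearly all of it mir-486, were 41.0 to 44.3 CPM in control. They were 18.8 to 35.9 CPM in CBD and 23.1 to 34.4 CPM in THC+LPS, the opposite direction to miR-451b. In LPS, THC and CBD+LPS every sample also lay below every control sample, so the lower sum was not particular to the groups with calls. How many of all features lay entirely below control was not counted. The part of these markers in the miR-451b result was not tested. miR-451a, from the opposite strand of the same place, had 2, 4 and 1 reads over the samples of control, CBD and THC+LPS.

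**Figure D4:**
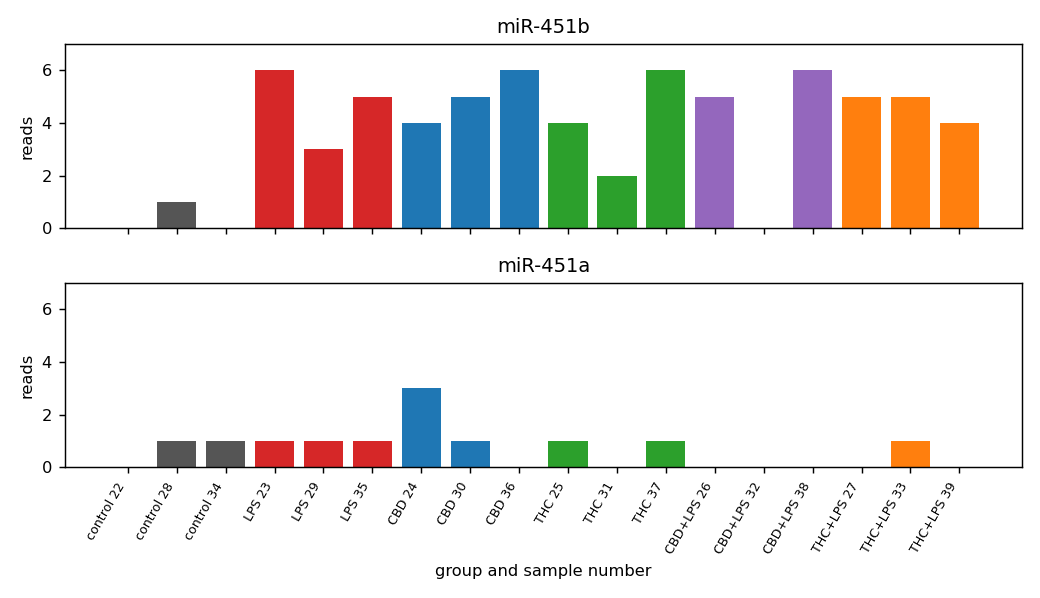
Recovered reads of miR-451b (top) and miR-451a (bottom) in each of the 18 samples, bars from 0 coloured by group. miR-451b has 0, 1 and 0 reads in control and 2 to 6 reads in each treated sample except CBD+LPS sample 32 with 0, and miR-451a has 0 to 3 reads throughout.

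By comparison, 0 of the 10 members tested were called with LPS, against 1.54% of all features. With CBD 1 of 10 was called (background 1.61%), with THC 0 (0.44%), with CBD+LPS 0 (1.39%) and with THC+LPS 1 (1.83%), and the called member was miR-451b both times. The members' median log2 fold change was 0.29 with LPS, 0.03 with CBD, 0.06 with THC, -0.15 with CBD+LPS and -0.04 with THC+LPS. Over all features tested it was 0.11, 0.00, 0.08, 0.04 and 0.03. The tested members are not independent, since most are arms or hairpins of mir-142, mir-223 and mir-150. The 5 comparisons share their control samples. miR-451b was the only tested member whose treated samples all lay above control, with LPS (5.58% of all features), CBD (6.9%), THC (3.82%) and THC+LPS (4.99%), and no member lay entirely below control in these comparisons.

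Relative to LPS alone, 0 of 10 members were called with CBD+LPS and 0 with THC+LPS (background 0.22% in each). The median over the members was -0.44 and -0.25 on the log2 scale, against -0.05 and -0.04 over all features. As above, most of these members share a hairpin with others, and miR-451a and miR-451b have few reads. The medians are therefore a description and not a result about separate miRNAs. With a limma adjusted p of 0.1 as the limit, the interactions of CBD or THC with LPS were called for 0 members and 0% of all features, the F test across the 6 groups for 0 members (background 1.76%), and LPS pooled over the cannabinoids for 0 members (background 1.54%).

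At an unadjusted p of at most 0.05, with no requirement on the fold, limma picked 2 of the 10 members with LPS (miR-142-5p and miR-451b, background 5.87%). It picked miR-451b alone with CBD (9.17%), with THC (3.37%) and with THC+LPS (4.77%), and 0 members with CBD+LPS (6.31%). Against LPS it picked 0 members with CBD+LPS (3.23%) and 0 with THC+LPS (2.35%). The interaction with CBD picked miR-451b (4.77%) and that with THC miR-142-5p (3.74%), the F test picked miR-451b (8.36%), and the pooled LPS effect picked 0 (6.97%). Wherever limma called 0 members by the criterion, edgeR's quasi-likelihood test and DESeq2 on the recovered reads called 0 as well, while of limma's 2 calls edgeR made 1 and DESeq2 0.

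**Figure D5:**
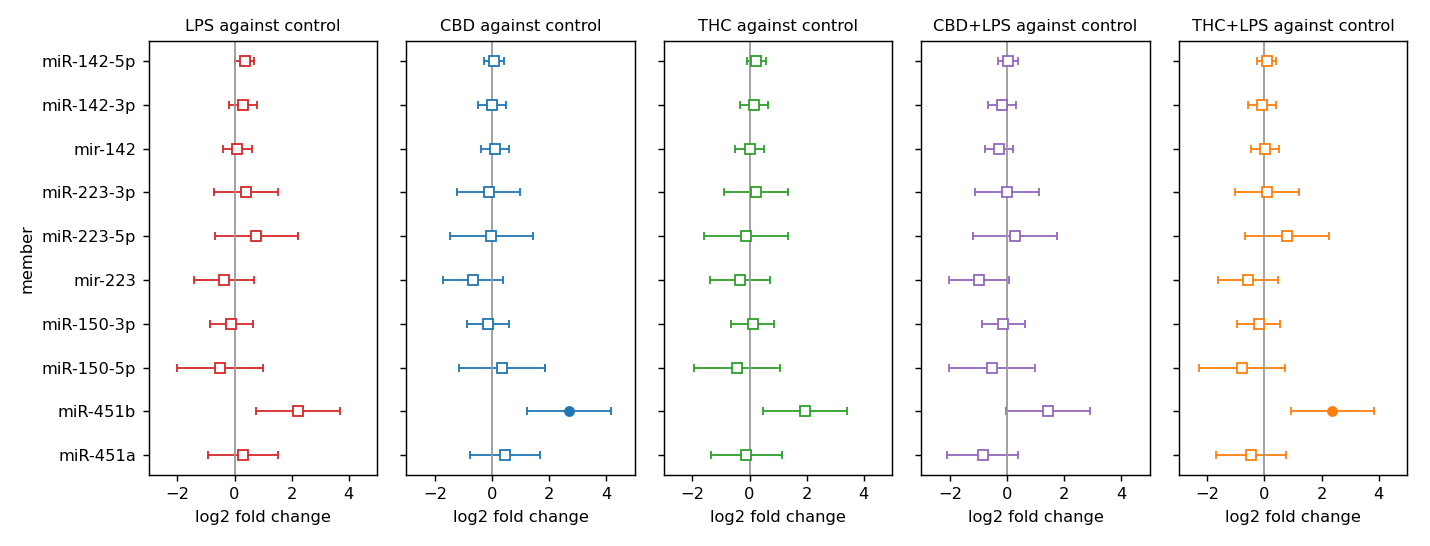
Log2 fold change from control (on log2(CPM + 1)) of the 10 tested members for each treatment, with 95% intervals from limma, filled circles where the criterion was met and open squares elsewhere. miR-451b with CBD (2.69) and with THC+LPS (2.38) are the filled points, and the intervals of miR-142 are the narrowest.

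CBD and THC share their atoms and differ in a ring, which is closed in THC and open with a free hydroxyl group in CBD. At the same dose and time they were compared as CBD against THC and as CBD+LPS against THC+LPS, with p adjusted over all features in each. No member was called in either (0 of 10, background 3.3% and 0.147%), nor was any picked at the unadjusted 0.05 (background 16.2% and 2.64%). The log2 difference between CBD and THC was -0.17 for miR-142-5p (95% interval -0.51 to 0.17), -0.35 for miR-223-3p (-1.47 to 0.76), -0.26 for miR-150-3p (-1.005 to 0.49) and 0.76 for miR-451b (-0.71 to 2.22). Under LPS it was -0.03 (-0.37 to 0.30), -0.09 (-1.21 to 1.02), 0.08 (-0.67 to 0.82) and -0.94 (-2.40 to 0.53) for the same miRNAs. The intervals of miR-142-5p stayed within 1.5-fold in both comparisons, and those of the other 3 reached beyond it.

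Other miRNAs linked to blood cells, read as a list of 62 features of which 58 were tested, did include features that rose with LPS. The list holds mir-15a, mir-15b, mir-16, mir-17, mir-20a, mir-21a, mir-24, mir-125b, mir-126, mir-146a, mir-155, mir-181a, mir-221, mir-222, mir-342, mir-363, mir-322 and mir-486. With LPS 13 of 58 rose and 0 fell (1.39% of all features rose), with CBD+LPS 10 rose (1.03%), with THC+LPS 13 rose (1.61%), and with CBD or THC alone 0 moved. These were features of mir-155, mir-146a, mir-21a, mir-20a, mir-221 and mir-222, most of which the study listed from these samples. The list was chosen with earlier results of these data known, so its counts are not independent evidence. Its 13 features that rose with LPS are also among the 19 that make up the 1.39%. miR-155-5p, a miRNA induced by Toll-like receptor signaling, went from 922 ± 325 to 8921 ± 662 CPM (SD, n = 3) with LPS, a log2 fold change of 3.33 (SE 0.22, limma adjusted p = 1.66e-08). The erythroid miR-486-5p stood at 26.5 ± 8.43 CPM in control and 21.7 ± 6.47 in LPS (SD, n = 3) and was not called.

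By Spearman's correlation over the 18 samples among 535 features with at least 180 reads, given as a description since all points share their libraries, miR-223-3p was most like miR-1249-3p (0.936), miR-30b-5p (0.920) and miR-29c-5p (0.913). miR-142-5p was most like miR-30d-3p (0.876), mir-15b (0.794) and miR-30e-3p (0.787). miR-142-3p was most like mir-15b (0.889), miR-879-5p (0.874) and let-7f-2-3p (0.829), and the mir-142 hairpin miR-19a-3p (0.886), miR-1965 (0.882) and miR-30e-5p (0.880). For miR-150-3p the highest values were lower, with miR-30d-3p (0.637), miR-151-5p (0.631) and miR-143-3p (0.628), and for the mir-223 hairpin they were miR-339-3p (0.715), miR-181d-5p (0.688) and miR-484 (0.631). Among the members themselves, miR-142-5p and miR-142-3p had a coefficient of 0.818, miR-223-3p and its hairpin 0.523, and miR-223-3p and the mir-142 hairpin -0.624. Samples 22 to 27 enter each of these coefficients, and they lay wholly apart from the others for miR-142-3p and miR-223-3p. What part this had in the coefficients was not tested.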

How the data were processed

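Small RNA of 18 BV-2 samples in 6 groups was read from the deposited tables of 855 hairpins and 1279 mature miRNAs. Per the study's methods, reads were aligned by the authors to mouse miRBase with BWA, several mappings per read being allowed, and counted per known miRNA. How reads with several mappings were counted, and whether strand was used, is not given in the sources used here. The values the authors deposited are CPM scaled by TMM, and the same quantity was recorded as a signal where a sample's values sum to above a plain CPM total. All values (100%, tolerance 0.01 reads) came out as whole reads once divided by the step of 1 read in the sample. TMM factors recomputed from the recovered reads matched the deposited scale to within a relative 4.86e-10.

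On log2(CPM + 1), limma 3.58.1 (R 4.3.3, mean-variance trend on) was fitted to all 6 groups in 1 model for the 1363 features that held 10 reads or more in total. Adjusted p-values are Benjamini-Hochberg values over all tested features, and tests were 2-sided. Comparisons of 2 groups were called at 1.5-fold or more with an unadjusted p of 0.005 or less, and the F test, interactions and pooled LPS effect at an adjusted p of 0.1 or less. The fit was tested on simulated data. Alternatives were other scalings, pseudocounts and filters, edgeR 4.0.16, DESeq2 1.42.0, covariates, samples 28 to 39 alone and each sample left out, with a block of consecutive sample numbers added after seeing the data. Counting intervals of read ratios are exact binomial intervals at 95%. Sequences are from RefSeq and positions from GENCODE, both on GRCm38.

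Every feature matching the names was a member and was named. For members with at least 180 reads the 3 most correlated other features were named. The members, lists, tests and alternatives were chosen with earlier results of these data known. The labels do not say whether the 3 samples of a group came from separate cultures, so p-values measure the spread between these samples, which may be technical.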

Additional observations from a re-analysis of the deposited data

How the results depend on the processing

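Over 33 alternatives for each of 13 comparisons, 399 counts of called members equalled the count reported and 30 did not. No direction reversed for miR-451b against control or in the interaction of CBD and LPS, for miR-142-5p with LPS against control and with CBD+LPS or THC+LPS against LPS, for mir-223 with CBD+LPS, or for miR-223-3p with LPS. The small changes of miR-142-5p against control with CBD, CBD+LPS and THC+LPS did change sign with the scaling. With LPS the count was 1 in place of 0 (miR-451b) with a pseudocount of 0.5, without the mean-variance trend and with the summed mir-6236, mir-6240 and mir-6243 level as a covariate. With CBD it was 0 in place of 1 with edgeR's filterByExpr, which leaves miR-451b out of the test, with DESeq2, at an adjusted p of at most 0.1 and in samples 28 to 39 alone. With THC+LPS it was 0 in place of 1 under the same 4 settings, with the reference miRNAs for scaling and with edgeR's quasi-likelihood test. With CBD+LPS it was 1 in samples 28 to 39 (mir-223). The interaction of CBD and LPS gave 1 at an unadjusted p of at most 0.005 (miR-451b). The F test gave 1 in samples 28 to 39 (miR-142-5p, limma unadjusted p = 0.0172, adjusted p = 0.0978). The share of all features called was not counted for samples 28 to 39, so these counts cannot be read as results about the members. Leaving out each sample gave counts of 0 to 1 with LPS, CBD, THC, CBD+LPS, THC+LPS and in the F test. For CBD the call was lost without control samples 22 or 34 or CBD sample 36, and for THC+LPS without control samples 22 or 34 or any THC+LPS sample. Without CBD+LPS sample 32, miR-451b was called in all 5 treatments and in the F test, and the LPS call also appeared without control sample 28 or CBD+LPS sample 38. The cause of these changes was not tested. The log2 fold change of miR-451b ranged over the alternatives from 2.03 to 3.72 with CBD and from 1.75 to 3.36 with THC+LPS. Of 108 comparisons of the other members 63 changed sign under at least 1 alternative, and 14 of these had a log2 fold change above 0.3 in size. The groups share no sample number, but the numbers fall into 3 runs of 6 with 1 sample per group, and a fit with these runs as a replicate block was added after seeing the data. It left the calls as they were, with 1 member with CBD, 1 with THC+LPS (miR-451b both times) and 0 in every other comparison. Samples of a run did not deviate together throughout, since 16 of 45 pairs of samples within a run had a correlation of their deviations from the group means above 0.1 (median 0.0562) and 10 of 18 samples were most like their own run. Depth limits miR-144, miR-451a and miR-451b most, with at most 6 reads of any of them in a sample.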
